A study of Mus musculus with 12 samples.

Results

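The promoters of 10 MHC class I genes were followed through 12 chromatin libraries from the forebrain of mouse embryos. The genes were H2-K1, H2-D1, H2-Q4, H2-Q6, H2-Q7, H2-T23, B2m, Tap1, Tap2 and Nlrc5, chosen by symbol from 55276 symbols in the promoter count tables, of which 21230 are protein-coding by RefSeq. Each of the 10 had exactly 1 window, which spans 2 kb around a start site of transcription. The group was taken up because H2-Q6 and H2-K1 stood out when the library labelled EedcKO H3K27ac was set against the wild type H3K27me3 library, so values from those libraries describe the choice and support nothing by themselves.

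Both genotypes, EedcKO and wild type, were untreated C57BL/6 forebrains of E12.5 embryos. EedcKO is the labels' name for a genotype with altered Eed; the Eed protein belongs to the core of Polycomb repressive complex 2. The sources used here do not give the promoter or Cre that drives the deletion, the deleted part of Eed, the sex or the number of embryos behind a library. Each genotype had 1 library of Eed and 1 of input by cross-linked ChIP (X-ChIP), and, by CUT&Tag, 1 of an IgG control and 1 each of RNA polymerase II (RNA-Pol2), H3K27ac and H3K27me3. In CUT&Tag a transposase tethered to the antibody cuts the DNA around it. With 1 library per group there is no replicate check of any difference and hence no p-value.

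MHC class I molecules carry peptides from inside the cell to its surface, where CD8 T cells and natural killer cells read them. A polymorphic heavy chain pairs with the invariant light chain beta-2-microglobulin, and the TAP transporter brings peptides into the endoplasmic reticulum for loading. NLRC5 is the transactivator that acts at class I promoters, together with factors bound at their kappaB, interferon response and SXY elements. In the developing brain class I levels are known to be low, and in other systems Polycomb repressive complex 2, which writes H3K27me3, is known to keep class I genes silent.

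The heavy chain genes lie in the H2 complex on chromosome 17 (coordinates in mm10). H2-K1 (ENSMUSG00000061232.16, chr17:33999347-34001346, minus strand) and H2-D1 (ENSMUSG00000073411.12, chr17:35261730-35263729, plus strand) encode the classical heavy chains. H2-Q4 (ENSMUSG00000035929.11, chr17:35378617-35380616, plus strand), H2-Q6 (ENSMUSG00000073409.12, chr17:35423850-35425849, plus strand), H2-Q7 (ENSMUSG00000060550.16, chr17:35438155-35440154, plus strand) and H2-T23 (ENSMUSG00000067212.8, chr17:36031855-36033854, minus strand) encode non-classical ones. Tap1 (ENSMUSG00000037321.17, chr17:34186553-34188552, plus strand) and Tap2 (ENSMUSG00000024339.12, chr17:34202527-34204526, plus strand), the TAP subunits, lie between H2-K1 and H2-D1. B2m (ENSMUSG00000060802.8, chr2:122146686-122148685, plus strand) encodes beta-2-microglobulin, and Nlrc5 (ENSMUSG00000074151.13, chr8:94433356-94435355, plus strand) the transactivator. The intervals are the counting windows, which hold the promoter and the start of the gene.

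Of the 10 genes, 8 matched the RefSeq promoter table of GRCm38.p6, all but Tap2 and Nlrc5. The 250 bases before the annotated start are shown for 7 of them. The 5 related heavy chain promoters carry nearly the same elements, and the reads at these windows may not be told apart. B2m and Tap1 are shown beside them. Capitals mark matches to 5 motifs on either strand: the core GGATTCC of the kappaB site in enhancer A, the interferon response letters TTTCNNTTC, the core TGACG of the cAMP response element, the CCAAT box and the TATA box TATAAA.
H2-K1: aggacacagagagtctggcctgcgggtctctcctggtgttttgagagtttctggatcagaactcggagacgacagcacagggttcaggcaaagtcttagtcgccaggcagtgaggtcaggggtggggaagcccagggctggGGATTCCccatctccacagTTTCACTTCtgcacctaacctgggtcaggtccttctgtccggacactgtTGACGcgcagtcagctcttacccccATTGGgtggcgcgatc
H2-D1: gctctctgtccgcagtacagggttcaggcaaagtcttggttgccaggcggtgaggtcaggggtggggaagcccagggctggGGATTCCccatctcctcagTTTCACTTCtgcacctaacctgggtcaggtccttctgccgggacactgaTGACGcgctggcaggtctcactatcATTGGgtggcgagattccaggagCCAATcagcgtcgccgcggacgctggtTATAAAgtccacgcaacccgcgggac
H2-Q4: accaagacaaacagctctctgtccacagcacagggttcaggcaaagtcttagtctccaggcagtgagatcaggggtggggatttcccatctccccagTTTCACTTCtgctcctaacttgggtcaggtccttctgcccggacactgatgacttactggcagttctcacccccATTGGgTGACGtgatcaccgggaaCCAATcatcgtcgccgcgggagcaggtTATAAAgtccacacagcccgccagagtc
H2-Q6: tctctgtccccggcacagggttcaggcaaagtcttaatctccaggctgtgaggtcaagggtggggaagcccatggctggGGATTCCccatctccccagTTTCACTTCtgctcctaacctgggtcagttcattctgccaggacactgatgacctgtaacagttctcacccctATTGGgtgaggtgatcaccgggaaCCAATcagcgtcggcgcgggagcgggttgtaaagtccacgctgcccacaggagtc
H2-Q7: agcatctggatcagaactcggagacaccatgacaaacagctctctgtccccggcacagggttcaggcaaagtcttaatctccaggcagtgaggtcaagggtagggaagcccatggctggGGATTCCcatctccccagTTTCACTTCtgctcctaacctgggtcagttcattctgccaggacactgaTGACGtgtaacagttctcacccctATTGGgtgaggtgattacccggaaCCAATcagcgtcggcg
B2m: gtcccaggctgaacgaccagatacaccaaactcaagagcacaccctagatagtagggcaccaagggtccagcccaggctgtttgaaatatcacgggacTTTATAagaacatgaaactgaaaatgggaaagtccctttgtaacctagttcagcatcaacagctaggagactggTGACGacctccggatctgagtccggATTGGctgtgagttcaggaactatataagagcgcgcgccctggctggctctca
Tap1: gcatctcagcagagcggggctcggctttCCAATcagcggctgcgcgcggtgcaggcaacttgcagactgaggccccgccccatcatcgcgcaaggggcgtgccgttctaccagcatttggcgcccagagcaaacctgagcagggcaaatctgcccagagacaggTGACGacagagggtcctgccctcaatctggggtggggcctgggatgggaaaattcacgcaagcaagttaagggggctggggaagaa
The stretches are chr17:34000348-34000597 (minus strand) for H2-K1, chr17:35262844-35263093 for H2-D1, chr17:35379367-35379616 for H2-Q4, chr17:35424600-35424849 for H2-Q6, chr17:35438905-35439154 for H2-Q7, chr2:122147437-122147686 for B2m and chr17:34187306-34187555 for Tap1, the last 6 on the plus strand. The RefSeq start lies 364 bases downstream of the window centre for H2-D1 and 154 bases downstream for H2-T23. For H2-K1, H2-Q4, H2-Q6 and H2-Q7 both positions coincide, and for B2m and Tap1 they differ by 1 and 3 bases.

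The kappaB letters stood in the promoters of 4 of the 8 genes, H2-K1, H2-D1, H2-Q6 and H2-Q7, and in 3.79% of 32817 RefSeq promoters of the same length, which runs from 250 bases before to 50 bases after the start. The interferon response letters were found in these 4 and in H2-Q4, against 7.52% of all promoters. TGACG was found in 6 of the 8, H2-K1, H2-D1, H2-Q4, H2-Q7, B2m and Tap1, against 20.8% of all. CCAAT was present in all 8, against 37.4%, and TATAAA in H2-K1, H2-D1, H2-Q4 and B2m, against 13.6%. None of these 5 motifs overlapped another in the stretches shown. In H2-K1 the TATAAA match lay after the annotated start and so outside the stretch shown, and in B2m it was on the reverse strand. H2-K1 has 2 RefSeq promoter entries, and its positions here are those by the first. Only these exact letters were searched, so a gene without a match may carry the element in another spelling. H2-Q4, for example, has ggggatttccc shortly before its interferon response letters. The shares of all promoters are likewise those of the exact letters. These matches are letters in a window and not measured binding.

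The heavy chain promoters were close copies. H2-Q6 and H2-Q7 were identical in 97.3% of 261 aligned columns, H2-K1 and H2-D1 in 87.9% of 240, and H2-K1 and H2-Q6 in 83.2% of 238, with unaligned ends not counted. B2m and Tap1 were identical in 49.8% of 257 columns, and H2-T23 and H2-K1 in 50.8% of 258. The sources used here do not say how reads that map to several places were treated, so values of the H2-Q genes and of H2-K1 and H2-D1 may be split among copies. Other windows also overlap: Tap1 shares 1789 bases with the window of Psmb9, an immunoproteasome subunit transcribed the other way, H2-Q4 shares 1325 with Gm11131, Nlrc5 shares 1253 with 9330175E14Rik and Tap2 shares 78 with Gm20496.

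Total promoter counts ran from 948955 (EedcKO input) to 3842779 (EedcKO RNA-Pol2), and the members' counts from 5 to 754. Before any comparison, one limit concerns the labels. Over 39 Hox promoters, which carry H3K27me3 in the forebrain, the median count was 23 in the library labelled EedcKO H3K27me3 and 1384 in wild type H3K27me3. It was 1804 in the library labelled EedcKO H3K27ac and 18 in wild type H3K27ac, so the library labelled EedcKO H3K27ac goes against its label at these genes. Directions for both marks follow the labels as deposited, and the other pairing is given beside them. At the Eed promoter the Eed antibody gave 40 reads in EedcKO and 121 in wild type, and RNA-Pol2 gave 246 in EedcKO and 89 in wild type. The H3K27me3 libraries had 79 reads there in EedcKO and 31 in wild type, the H3K27ac libraries 35 and 130, input 19 and 27, and IgG 50 and 20. A promoter window does not show whether the gene was deleted.

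Among the 12 libraries, wild type H3K27me3 and the library labelled EedcKO H3K27ac held the 2 highest counts of H2-K1, H2-Q6, Tap1 and Tap2. H2-K1 had 45 reads in EedcKO and 307 in wild type for H3K27me3, and 582 in EedcKO and 29 in wild type for H3K27ac, by label. For Eed it had 33 reads in EedcKO and 133 in wild type, and for RNA-Pol2 142 in EedcKO and 63 in wild type. Input gave 17 reads in EedcKO and 34 in wild type, a log2 ratio of -0.88 (95% counting interval -1.84 to -0.03) relative to the median of all promoters, and IgG gave 17 in EedcKO and 16 in wild type. The 2 highest counts of H2-K1 thus lay in the libraries where the Hox genes were also high.

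H2-D1 had 51 reads in EedcKO and 141 in wild type for H3K27me3, and 197 in EedcKO and 48 in wild type for H3K27ac. It had 44 reads in EedcKO and 104 in wild type for Eed, and 188 in EedcKO and 100 in wild type for RNA-Pol2. Input gave 16 in EedcKO and 27 in wild type, and IgG 31 in EedcKO and 18 in wild type. H2-D1 had the highest RNA-Pol2 count of the 10 genes in both genotypes, not separated from Tap1 by counting error, and about the same order of reads in wild type H3K27me3 as H2-Q6.

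H2-Q6, whose product is a Qa-2 antigen, had 31 reads in EedcKO and 137 in wild type for H3K27me3, and 359 in EedcKO and 10 in wild type for H3K27ac. It had 36 in EedcKO and 95 in wild type for Eed, and 30 in EedcKO and 27 in wild type for RNA-Pol2, against input of 15 and 16 and IgG of 14 and 11 in EedcKO and wild type. RNA-Pol2 at H2-Q6 and at its near copy H2-Q7 was the lowest of the 10 genes in both genotypes. H2-Q7, also a Qa-2 gene, had 13 reads in EedcKO and 47 in wild type for H3K27me3, and 141 in EedcKO and 5 in wild type for H3K27ac. It had 54 in EedcKO and 86 in wild type for Eed, 28 in EedcKO and 36 in wild type for RNA-Pol2, 24 and 19 in the inputs and 24 and 15 in the IgG libraries.

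H2-Q4 had 23 reads in EedcKO and 87 in wild type for H3K27me3, and 136 in EedcKO and 28 in wild type for H3K27ac. It had 50 in EedcKO and 128 in wild type for Eed, 86 in EedcKO and 55 in wild type for RNA-Pol2, 24 and 29 in the inputs and 38 and 20 in the IgG libraries. Its Eed count in wild type was thus close to that of H2-K1, with much less H3K27me3. H2-T23, which encodes Qa-1 and is read by the CD94/NKG2A receptor, had 10 reads in EedcKO and 23 in wild type for H3K27me3, 53 in EedcKO and 14 in wild type for H3K27ac, and 58 in EedcKO and 40 in wild type for RNA-Pol2. With 30 reads in EedcKO and 29 in wild type for Eed, 11 and 13 in the inputs and 23 and 12 in the IgG libraries, it was the weakest heavy chain in both libraries that mark the others.

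The light chain gene did not share the pattern. B2m had 58 reads in EedcKO and 66 in wild type for H3K27me3, 55 in EedcKO and 69 in wild type for H3K27ac, and 47 in EedcKO and 15 in wild type for Eed. RNA-Pol2 gave 116 in EedcKO and 57 in wild type, input 23 and 30, and IgG 50 and 17. The 4 histone libraries therefore spanned 55 to 69 reads at B2m, where they spanned 29 to 582 at H2-K1. Scaled by window length and total promoter count (RPKM), they spanned 7.58 to 17.7 at B2m and 7.46 to 80.2 at H2-K1.

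Tap1 had the highest histone counts of the group: 56 reads in EedcKO and 579 in wild type for H3K27me3, and 754 in EedcKO and 78 in wild type for H3K27ac. Eed gave 69 in EedcKO and 102 in wild type, RNA-Pol2 187 in EedcKO and 95 in wild type, input 19 and 34, and IgG 54 and 24. Psmb9, which shares most of this window, had 54 and 552 for H3K27me3 and 703 and 76 for H3K27ac in EedcKO and wild type, so the reads cannot be assigned to 1 of both genes.

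Tap2 had 51 reads in EedcKO and 256 in wild type for H3K27me3, and 314 in EedcKO and 51 in wild type for H3K27ac. Eed gave 45 in EedcKO and 27 in wild type, RNA-Pol2 111 in EedcKO and 71 in wild type, input 16 and 23, and IgG 65 and 45. Tap2 therefore carried the histone pattern without a 2-fold excess of wild type Eed over input. Nlrc5 had 29 reads in EedcKO and 57 in wild type for H3K27me3, 61 in EedcKO and 38 in wild type for H3K27ac, 44 in EedcKO and 16 in wild type for Eed, 58 in EedcKO and 53 in wild type for RNA-Pol2, 24 and 30 in the inputs and 22 and 28 in the IgG libraries. Of the 10 genes, Nlrc5 and B2m varied least in reads among the 4 histone libraries. In RPKM Nlrc5 ran from 8.41 to 9.77, B2m from 7.58 to 17.7 and H2-D1 from 12.3 to 27.1. Scaled in this way, B2m did not vary less by fold than H2-D1.

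**Figure D1:**
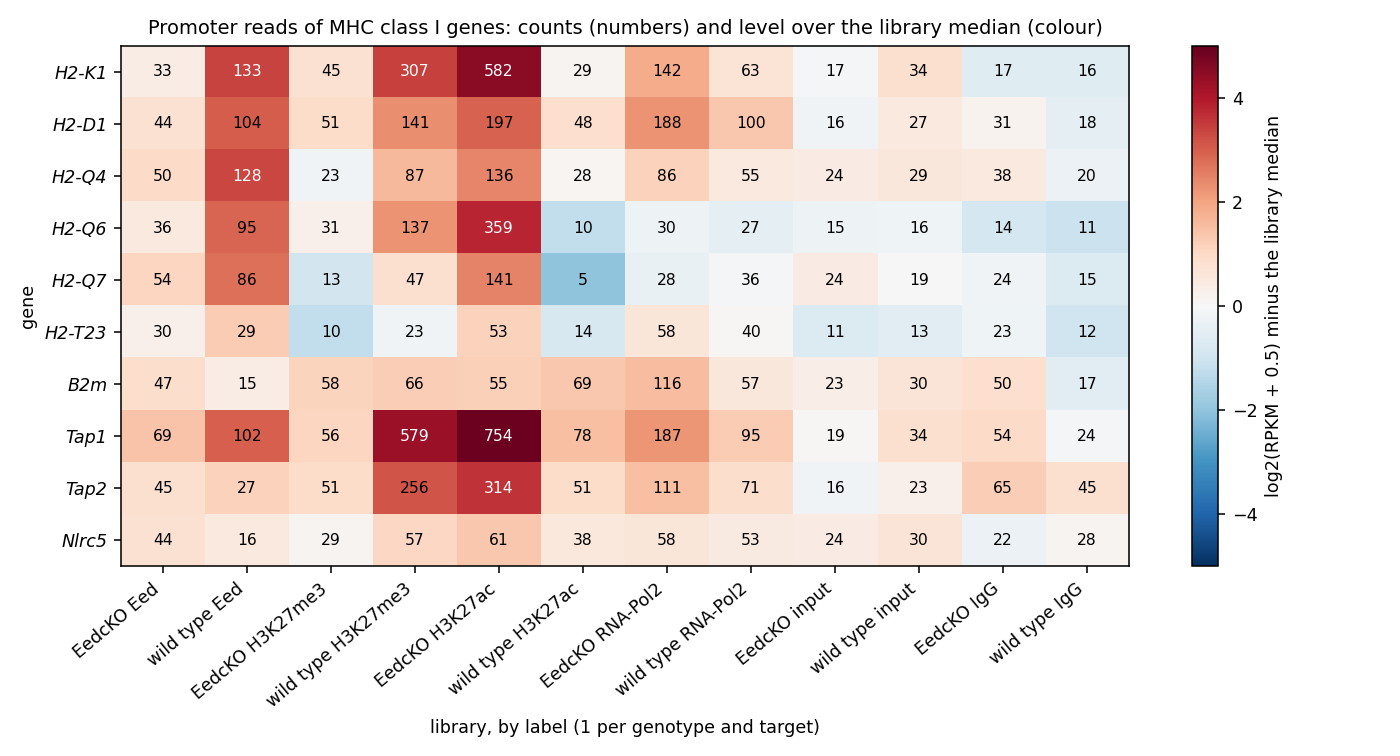
Read counts (numbers) of the 10 genes (rows) in the 12 libraries by label (columns), coloured by log2(RPKM + 0.5) minus the library's median over all windows. H2-K1 and Tap1 are darkest in wild type H3K27me3 (307 and 579 reads) and in the library labelled EedcKO H3K27ac (582 and 754 reads), and B2m stays between 55 and 69 reads in the 4 histone libraries.

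The order of the levels was read from the counts, since all windows are 2 kb. In wild type H3K27me3 it was Tap1, H2-K1, Tap2, H2-D1, H2-Q6, H2-Q4, B2m, Nlrc5, H2-Q7 and H2-T23. The neighbours Tap1 and H2-K1 differed 1.89-fold (95% counting interval 1.64 to 2.17), H2-K1 and Tap2 1.20-fold (1.01 to 1.42), Tap2 and H2-D1 1.82-fold (1.47 to 2.25), H2-Q6 and H2-Q4 1.57-fold (1.19 to 2.08) and H2-Q7 and H2-T23 2.04-fold (1.22 to 3.53). The other neighbours in that order did not differ beyond counting error. In the library labelled EedcKO H3K27ac the order was Tap1, H2-K1, H2-Q6, Tap2, H2-D1, H2-Q7, H2-Q4, Nlrc5, B2m and H2-T23, and counting error did not separate H2-Q6 from Tap2, H2-Q7 from H2-Q4, Nlrc5 from B2m or B2m from H2-T23.

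In wild type Eed the 10 genes fell into 2 ranges: H2-K1, H2-Q4, H2-D1, Tap1, H2-Q6 and H2-Q7 had 86 to 133 reads, and H2-T23, Tap2, Nlrc5 and B2m had 15 to 29. Between the 2 ranges H2-Q7 exceeded H2-T23 2.97-fold (1.93 to 4.69), and within each no neighbours differed beyond counting error. In EedcKO Eed all 10 genes lay between 30 and 69 reads, and no neighbours differed. In EedcKO RNA-Pol2 H2-D1 and Tap1 led with 188 and 187 reads and H2-Q6 and H2-Q7 came last with 30 and 28, and in wild type RNA-Pol2 no neighbours differed beyond counting error. These intervals, like all others given here, cover counting error only, and not the spread between libraries or embryos. They take each read as independent. Where molecular identifiers are absent, several reads can come from 1 molecule, and the intervals are then too narrow.

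For differences between libraries, counts were scaled by window length and by the library's total promoter count (RPKM), and the log2 ratio was taken with a pseudocount of 0.5 RPKM, which understates the change of low promoters. The median ratio of the promoters that averaged 1 RPKM or more was then taken out, which gives a relative log2 ratio. The median ratio taken out was -0.41 in RNA-Pol2, -1.04 in H3K27ac, 0.85 in H3K27me3 and 0.88 in Eed. A relative log2 ratio of at least 1 in size, a 2-fold difference, was called higher or lower. Fewer cells with a mark and less of the mark per cell cannot be told apart in bulk tissue.

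H3K27me3, the mark of silenced Polycomb targets, was lower in the library labelled EedcKO H3K27me3 than in wild type at 8 of the 10 promoters: all 6 heavy chains, Tap1 and Tap2. The same call was made at 13.0% of all 50165 promoters and at 18.0% of the protein-coding ones, and the opposite call, made at none of the 10, at 6.81% and 8.11%. Tap1 fell by 3.28 on the log2 scale (95% counting interval -3.74 to -2.92), H2-K1 by 2.68 (-3.20 to -2.26), Tap2 by 2.24 (-2.74 to -1.84) and H2-Q6 by 2.05 (-2.70 to -1.52). H2-Q4, H2-Q7, H2-D1 and H2-T23 fell by 1.11 to 1.81, H2-T23 the least (-1.11, interval -2.38 to -0.02, from 10 reads in EedcKO and 23 in wild type). The call at H2-T23 ended after setting the 2 libraries to an equal median (-0.99) and with a pseudocount of 2 RPKM (-0.85), which leaves 7 of 10. The other 2 genes were not called: the relative log2 ratios of Nlrc5 (-0.92) and B2m (-0.16) did not reach the size rule. The median of the 10 was -1.77, beside -0.00 for all protein-coding promoters tested. This comparison uses the wild type library in which the group was noticed. With library totals and no shift of the median, 4 of the 10 were lower and 0 higher, against 6.45% and 41.0% of all promoters.

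H3K27ac, a mark of active promoters, was higher in the library labelled EedcKO H3K27ac at the 8 promoters just named, H2-K1, H2-D1, H2-Q4, H2-Q6, H2-Q7, H2-T23, Tap1 and Tap2, a call made at 18.2% of all 47998 promoters and at 20.7% of the protein-coding ones. H2-Q6 was higher by 5.06 on the log2 scale (4.41 to 6.37), H2-Q7 by 4.52 (3.70 to 6.60), H2-K1 by 4.38 (3.92 to 5.05), Tap1 by 3.38 (3.07 to 3.76) and Tap2 by 2.72 (2.33 to 3.21). The values of H2-Q4, H2-D1 and H2-T23 were 2.36, 2.14 and 1.96, and those of Nlrc5 (0.83) and B2m (-0.14) did not reach the size rule. The median of the 10 was 2.54, beside -0.18 for protein-coding promoters. This comparison uses the other library of the choice, which goes against its label at the Hox genes. With library totals and no shift of the median, 7 of the 10 were higher and 1 lower, against 7.90% and 51.6% of all promoters.

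In the contrast that brought the genes up, the library labelled EedcKO H3K27ac against wild type H3K27me3, the relative log2 ratios were 1.62 for H2-Q7, 1.46 for H2-Q6, 1.20 for H2-T23, 1.01 for H2-K1, 0.72 for H2-Q4, 0.57 for H2-D1, 0.47 for Tap1, 0.38 for Tap2, 0.19 for Nlrc5 and -0.15 for B2m. The 4 at or above 1 stand beside 2.55% of all promoters and 1.95% of protein-coding ones, a description only. In the other pairing, the library labelled EedcKO H3K27me3 against wild type H3K27ac, H2-Q6 was higher by 1.54 (0.66 to 2.91) and H2-Q7 by 1.17 (-0.11 to 3.31). These 2 of 10 stand beside 13.0% of all 50021 promoters and 7.88% of protein-coding ones, and the median of the 10 was -0.04. Both rested on few reads, 31 and 10 for H2-Q6 and 13 and 5 for H2-Q7 in EedcKO and wild type. In this pairing 8 of the 10 genes differed by less than the size rule, so the histone differences depend on which EedcKO library is taken for which mark.

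**Figure D2:**
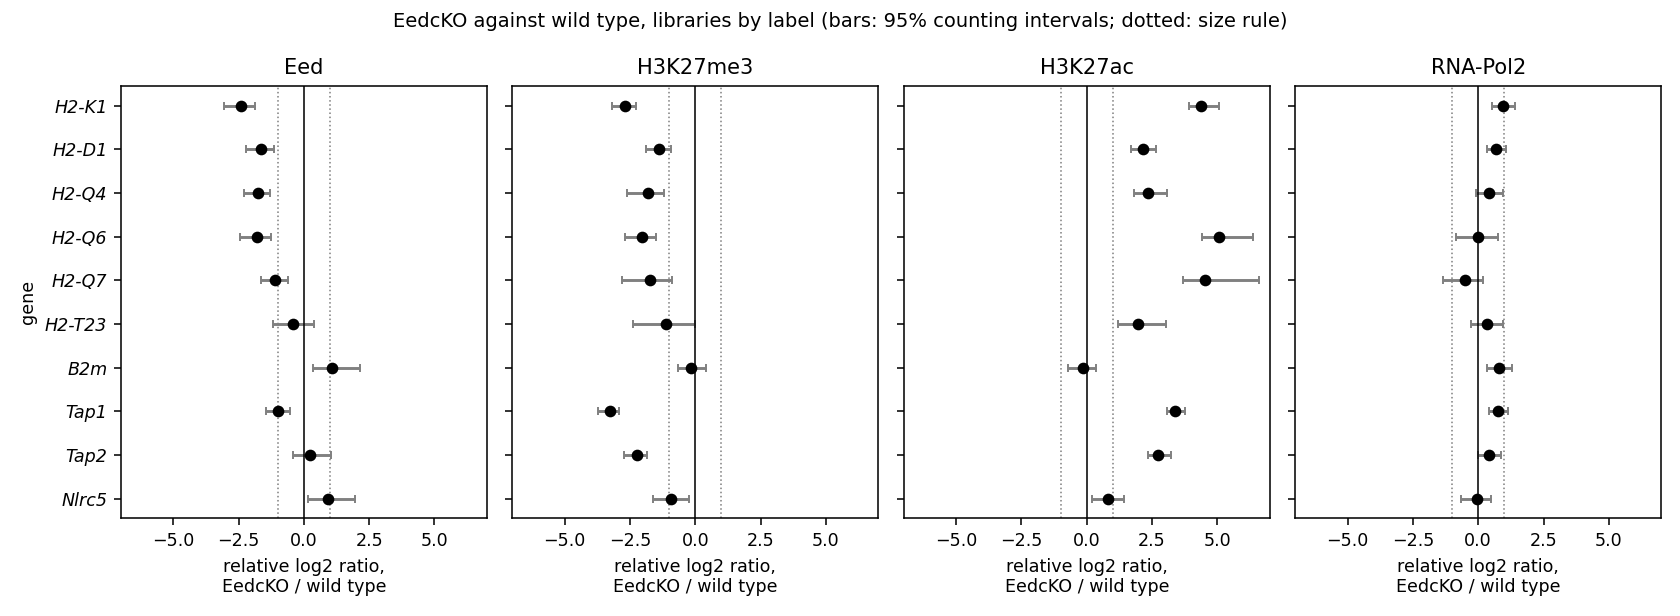
Relative log2 ratio of EedcKO to wild type (horizontal axis) for the 10 genes (rows), 1 panel per target, libraries by label. Points are the ratio of 1 library to 1 library, bars are 95% counting intervals and dotted lines mark the size rule. In H3K27me3 8 points lie at or left of -1.11, in H3K27ac 8 lie at or right of 1.96, and in RNA-Pol2 all 10 lie between the dotted lines.

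RNA polymerase II, which was not used to choose the genes, did not reach a 2-fold difference at any of the 10 promoters, a size seen in the higher direction at 12.2% and in the lower direction at 7.86% of 50379 promoters (4.18% of protein-coding ones). The largest ratios were 0.94 for H2-K1 (0.52 to 1.41), 0.79 for B2m (0.34 to 1.29), 0.75 for Tap1 (0.39 to 1.13) and 0.69 for H2-D1 (0.33 to 1.06), whose intervals lay above 0. The other 6 genes ran from -0.49 at H2-Q7 to 0.43 at H2-Q4 and Tap2, with intervals that held 0. The median of the 10 was 0.43, beside 0.48 for protein-coding promoters, of which 22.7% were called higher. The IgG libraries moved at some of the same genes: B2m was higher in EedcKO IgG by 1.37 (0.63 to 2.33) and Tap1 by 1.02 (0.34 to 1.82), 2 of 10 beside 7.33% of all promoters, while H2-K1 stood at -0.02 (-1.10 to 1.06). The part of the IgG difference in the RNA-Pol2 ratios of B2m and Tap1 was not tested. After setting the 2 libraries to an equal median, 2 of the 10 were higher, against 19.9% of all promoters higher and 5.33% lower, and with library totals 0 were called, against 2.42% higher and 21.1% lower. With IgG subtracted 6 genes were left to test, of which 3 were called lower, B2m (-3.95), H2-Q4 (-3.55) and H2-T23 (-3.01), against 20.5% of all promoters higher and 28.5% lower, and their median was -1.97.

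The Eed protein was lower in EedcKO at 5 of the 10 promoters, all of them heavy chains. H2-K1 fell by 2.40 (-3.04 to -1.88), H2-Q6 by 1.81 (-2.43 to -1.26), H2-Q4 by 1.77 (-2.29 to -1.31), H2-D1 by 1.65 (-2.22 to -1.15) and H2-Q7 by 1.10 (-1.62 to -0.60). This call was made at 30.0% of all 50751 promoters and at 48.2% of the protein-coding ones, so 5 of 10 is near the share of protein-coding promoters. B2m was the 1 gene called higher, by 1.08 (0.35 to 2.16), a call made at 22.6% of all promoters. Tap1 (-0.99), H2-T23 (-0.41), Tap2 (0.25) and Nlrc5 (0.91) did not reach the size rule. The median of the 10 was -1.05, beside -0.91 for protein-coding promoters. The call at B2m ended with a pseudocount of 2 RPKM (0.995) and where at least 20 reads were asked for (0.899). The call at H2-Q7 ended with that pseudocount (-0.86) and without a filter on low promoters (-0.98). Nlrc5 became called higher without that filter (1.03). Tap1, just short of the rule, became called lower with a pseudocount of 0.1 RPKM (-1.10), with at least 20 reads (-1.18) and with an equal median (-1.69). With input subtracted Tap1 stood at 0.55. The counts also changed with scaling: with library totals 3 were higher and 1 lower, against 47.2% and 14.7% of all promoters, and after setting the 2 libraries to an equal median 0 were higher and 7 lower, against 8.30% and 39.2%. With input subtracted 4 were higher and 4 lower, against 46.4% and 42.9%. There Tap2 (3.91), Nlrc5 (2.60) and H2-T23 (1.77) became called higher, and the call at H2-D1 ended (-0.92).

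Set against the control of their own genotype, the class I promoters carried H3K27me3 in wild type and hardly in the library labelled EedcKO H3K27me3. In EedcKO 2 of the 10 exceeded IgG 2-fold, H2-K1 by 1.32 (0.57 to 2.30) and H2-Q6 by 1.06 (0.19 to 2.17), and H2-T23 was lower than IgG at -1.08 (-2.44 to -0.08). Of all promoters 7.78% were called higher in that comparison and 6.83% lower, and of 20155 protein-coding ones 2414 (12%) were called higher and 4.23% lower. In wild type 8 of the 10 exceeded IgG, led by Tap1 at 4.39 (3.88 to 5.12), H2-K1 at 4.03 (3.41 to 4.96) and H2-Q6 at 3.37 (2.63 to 4.55). All promoters were called higher there at 19.1%, and protein-coding ones at 33.1%. The wild type H3K27me3 library was used in the choice of the genes. The remaining wild type ratios were 2.76 for H2-D1, 2.35 for Tap2, 1.95 for H2-Q4, 1.78 for B2m, 1.48 for H2-Q7, 0.90 for Nlrc5 and 0.83 for H2-T23. Without the shift of the median, 5 of the 10 exceeded IgG in wild type and 0 were lower, against 7.62% and 51.5% of all promoters.

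For H3K27ac over IgG, 9 of the 10 were called higher in the library labelled EedcKO H3K27ac, with H2-K1 at 5.07 (4.50 to 5.98), H2-Q6 at 4.63 (4.01 to 5.66) and Tap1 at 3.86 (3.50 to 4.32), and B2m at 0.28 (-0.35 to 0.81) as the exception. Of all promoters 14.5% were called higher, and of protein-coding ones 23.1%. This library was used in the choice of the genes. In wild type 3 of the 10 were called higher, B2m at 1.88 (1.17 to 2.81), Tap1 at 1.59 (0.96 to 2.36) and H2-D1 at 1.30 (0.54 to 2.22), against 23.3% of all promoters and 42.9% of protein-coding ones. H2-Q7, with 5 reads, was lower at -1.31 (-3.47 to -0.12), a call made at 19.5% of all promoters and 11.2% of protein-coding ones, which ended with a pseudocount of 2 RPKM (-0.82). B2m thus had acetylation over control in the wild type library, where the H2-Q genes had none that could be detected at this depth.

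For Eed over input, Tap1 alone was called higher in EedcKO, at 1.23 (0.53 to 2.09), against 5.16% of all promoters and 7.55% of protein-coding ones. In wild type 7 of the 10 were called higher: H2-Q6 at 2.88 (2.16 to 3.80), H2-Q7 at 2.50 (1.82 to 3.35), H2-Q4 at 2.48 (1.92 to 3.14), H2-K1 at 2.31 (1.78 to 2.92), H2-D1 at 2.29 (1.69 to 2.98), Tap1 at 1.94 (1.38 to 2.56) and H2-T23 at 1.51 (0.54 to 2.59). Tap2 (0.64), Nlrc5 (-0.42) and B2m (-0.50) were not. This stands beside 28.4% of all promoters and 52.0% of protein-coding ones called higher. Without the shift of the median, 3 of the 10 were higher and 2 lower in wild type, against 14.5% and 59.4% of all promoters.

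For RNA-Pol2 over IgG, H2-K1 at 2.31 (1.67 to 3.22), H2-D1 at 1.89 (1.38 to 2.53) and Tap1 at 1.11 (0.68 to 1.59) were called higher in EedcKO, 3 of 10 beside 23.4% of all promoters and 42.1% of protein-coding ones. In wild type H2-D1 at 1.80 (1.14 to 2.69), Tap1 at 1.34 (0.73 to 2.10), H2-K1 at 1.31 (0.57 to 2.27), B2m at 1.09 (0.35 to 2.02) and H2-T23 at 1.07 (0.18 to 2.21) were called higher, 5 of 10 beside 15.3% and 27.3%. With a pseudocount of 2 RPKM the wild type calls at B2m (0.93) and H2-T23 (0.87) ended. H2-K1, H2-D1 and Tap1 thus stood above IgG in both genotypes, and Tap2 in neither, at 0.12 (-0.35 to 0.57) in EedcKO and 0.07 (-0.50 to 0.63) in wild type.

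**Figure D3:**
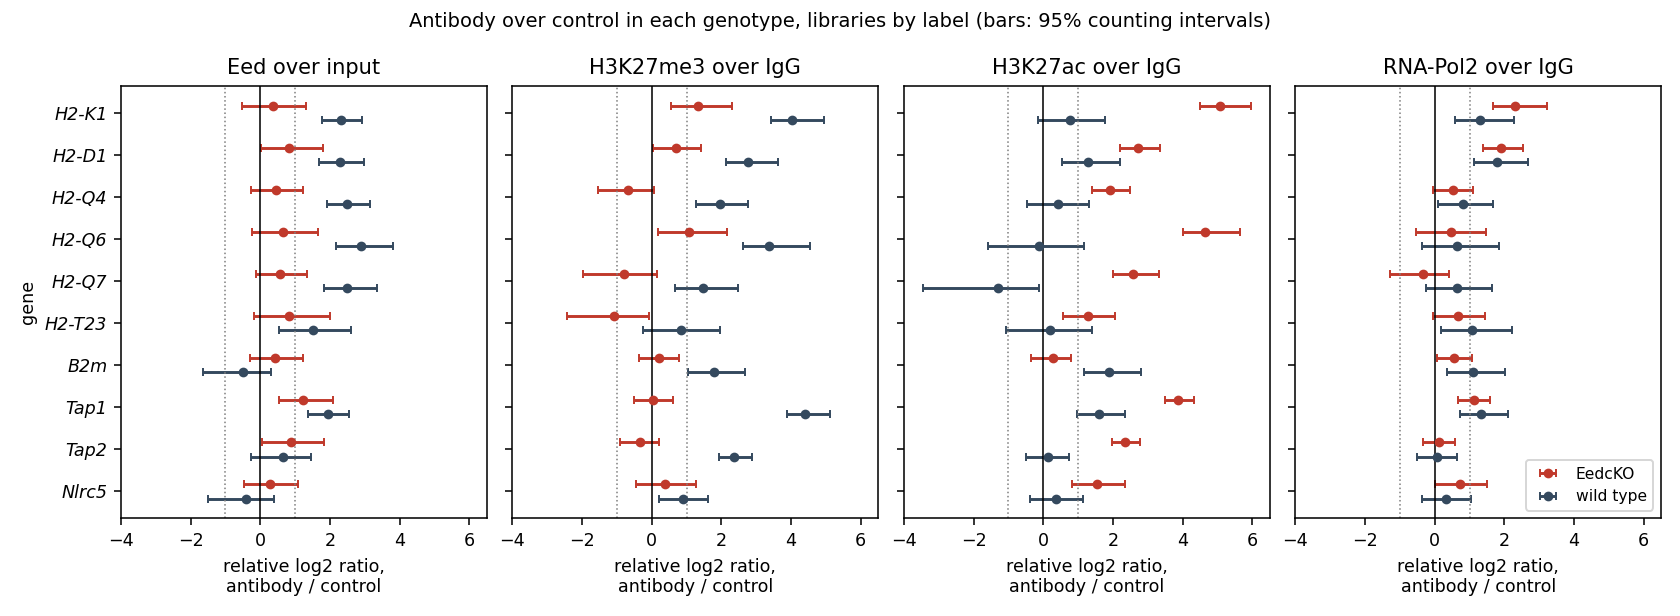
Relative log2 ratio of each antibody library to the control of its own genotype (horizontal axis) for the 10 genes (rows), EedcKO above wild type in each row, with 95% counting intervals. H2-K1 stands at 1.32 in EedcKO and 4.03 in wild type for H3K27me3, and at 5.07 in EedcKO and 0.76 in wild type for H3K27ac, while B2m shows the reverse order for H3K27ac.

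The authors' summit lists, called in each library by itself, placed peaks at several of these promoters. A summit lay inside the window of 5 of the 10 genes in the library labelled EedcKO H3K27ac (H2-K1, H2-Q4, H2-Q6, H2-Q7 and Tap1), of 2 in wild type H3K27ac (B2m and Tap1), of 0 in EedcKO H3K27me3 and of 5 in wild type H3K27me3 (H2-K1, H2-Q4, H2-Q6, B2m and Tap1). The same was true of 11.4%, 21.7%, 2.50% and 12.7% of protein-coding promoters in those 4 libraries. Eed summits lay in 4 windows in EedcKO (H2-Q7, B2m, Tap1 and Nlrc5) and in 7 in wild type (H2-K1, H2-D1, H2-Q4, H2-Q6, H2-Q7, H2-T23 and Tap1), beside 16.0% and 54.8% of protein-coding promoters. RNA-Pol2 summits lay in 3 windows in EedcKO (H2-K1, H2-D1 and Tap1) and in 0 in wild type, beside 40.3% of protein-coding promoters in EedcKO and 2191 of 21230 in wild type. The lists differ greatly in length, from 671 summits in EedcKO H3K27me3 to 61019 in wild type Eed, so counts between lists show no change.

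The positions were not all at the start site. In H2-Q6 the summit lay 988 bases downstream of the window centre in the library labelled EedcKO H3K27ac and 987 in wild type H3K27me3, at the edge of the window and far from the kappaB and interferon response letters 171 and 152 bases before the start. In H2-K1 it lay 217 bases upstream in the library labelled EedcKO H3K27ac and 159 downstream in wild type H3K27me3, with kappaB and interferon response letters 109 and 90 bases before the start. Wild type Eed summits lay 234 and 804 bases downstream in H2-K1, 561 in H2-D1, 186 and 697 in H2-Q4, 169 in H2-Q6, 256 and 679 in H2-Q7 and 463 in H2-T23. The Eed summits of the heavy chains in wild type were thus all downstream of the window centre, in the start of the gene. At B2m the wild type H3K27me3 and H3K27ac summits lay 111 and 109 bases downstream, at nearly the same place.

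**Figure D4:**
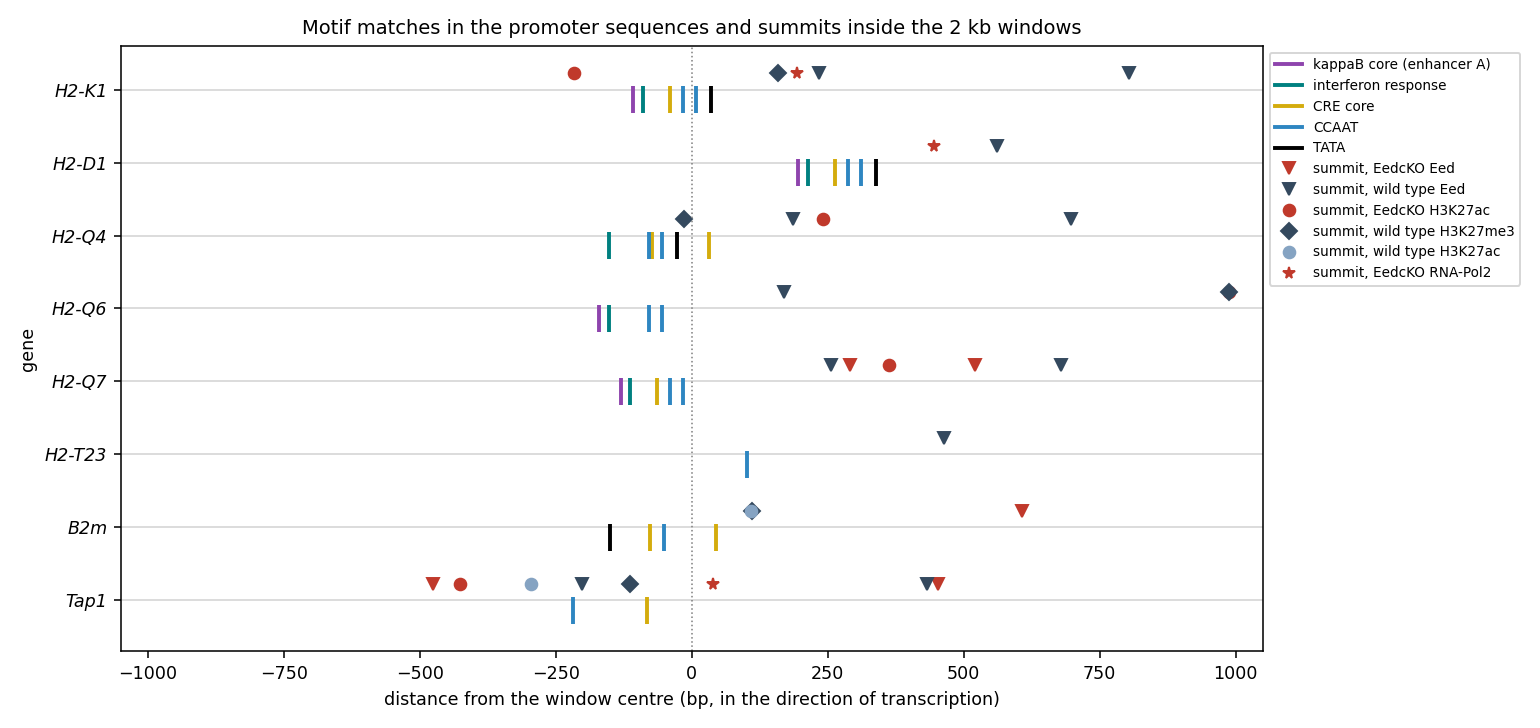
Motif matches in the RefSeq promoter sequence (ticks below each line) and the authors' summits (symbols above it) for the 8 genes with a sequence, by distance from the window centre in bp along the direction of transcription. In H2-Q6 the symbols at 988 (EedcKO H3K27ac) and 987 (wild type H3K27me3), and in B2m those at 111 and 109, cover each other, and the ticks of H2-D1 lie downstream of 0 because its RefSeq start is 364 bases from the window centre.

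Other class I heavy chain genes of the H2 complex were examined next, as a list of 20 named with earlier results known. The counts of this and the following lists stand beside these shares of protein-coding promoters: 8.11% higher and 18.0% lower for H3K27me3, 20.7% and 18.3% for H3K27ac, 16.4% and 48.2% for Eed, and 22.7% and 4.18% for RNA-Pol2. For H3K27me3 8 of the 20 were lower in EedcKO by label and 0 higher, with a list median of -0.40. H2-Q1 had 27 reads in EedcKO and 440 in wild type (-3.90), H2-Q10 had 37 and 547 (-3.78), and H2-Q2 had 37 and 496 (-3.64). In the library labelled EedcKO H3K27ac these had 722, 954 and 765 reads, against 22, 22 and 18 in wild type H3K27ac, so 3 genes of the Q region outside the group had more histone reads than H2-Q6. For H3K27ac 11 of the 20 were called higher in EedcKO and 0 lower.

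Further along the chromosome, from H2-M10.2 to H2-M10.6, the 9 promoters of the M region had 10 to 35 reads in the library labelled EedcKO H3K27me3 and 11 to 34 in wild type H3K27me3. H2-M5, beyond them, had 27 reads in EedcKO and 219 in wild type. For Eed, 9 of the 20 were called higher in EedcKO and 3 lower, led by H2-M3 (43 reads in EedcKO and 5 in wild type), H2-M2 (30 and 3) and H2-T22 (27 and 3), all with few wild type reads. For RNA-Pol2 1 of the 20 was called higher, H2-M10.5 with 44 reads in EedcKO and 16 in wild type, and 0 lower.

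**Figure D5:**
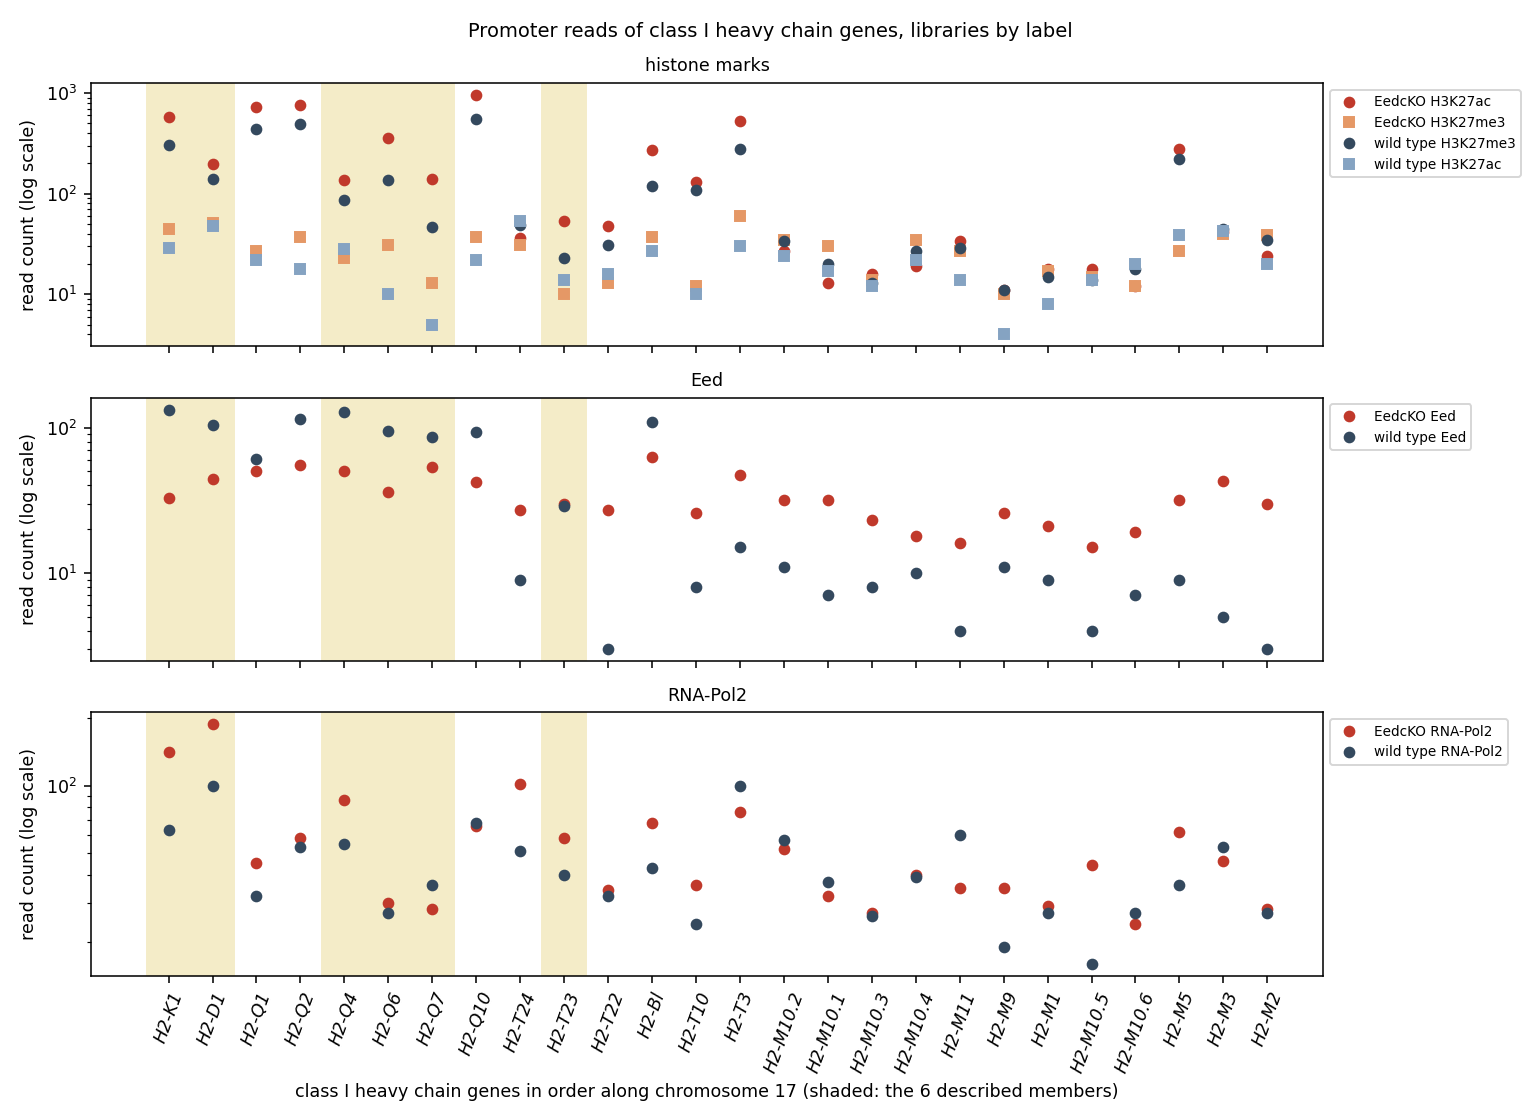
Read counts (log scale) of 26 class I heavy chain genes in their order along chromosome 17, for the histone marks, Eed and RNA-Pol2, with libraries by label and the 6 genes of the group shaded. H2-Q1, H2-Q2 and H2-Q10 have 440 to 547 reads in wild type H3K27me3, more than the shaded H2-Q genes between them (47 to 137), and most H2-M promoters lie near 10 to 40 reads in every histone library.

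The peptide loading and immunoproteasome list of 11 genes differed by gene. For H3K27me3 2 of the 11 were lower in EedcKO by label, the immunoproteasome subunits Psmb8 (59 reads in EedcKO and 1079 in wild type, -4.10) and Psmb9 (54 and 552, -3.26), which lie beside Tap1, and 0 were higher. The list median was 0.40. For H3K27ac those same genes were the 2 called higher, Psmb8 by 5.32 and Psmb9 by 3.32, and 4 were lower, among them Pdia3 (46 and 142 reads, -1.40), the disulfide isomerase of the loading complex. For Eed 7 of the 11 were lower and 2 higher, beside 48.2% and 16.4% of protein-coding promoters. For RNA-Pol2 5 of the 11 were higher and 0 lower, beside 22.7% and 4.18%, with Pdia3 (530 and 151, 1.58), the chaperone gene Canx (288 and 93, 1.39) and Tapbp, which encodes tapasin (377 and 124, 1.37), as the largest. The constitutive counterparts Psmb5, Psmb6 and Psmb7 had 0 of 3 called for H3K27me3, with values from -0.29 to 0.18.

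Among 10 class I-like genes outside the H2 complex, 3 of the 9 tested were lower for H3K27me3 in EedcKO by label and 0 higher: Raet1e, an NKG2D ligand gene (10 reads in EedcKO and 486 in wild type, -5.33), Procr (10 and 61, -2.40) and Hfe (20 and 47, -1.16). Of 11 class II presentation genes 0 were called in either direction for H3K27me3 or for H3K27ac. Of 21 regulators of MHC genes and of the interferon response, 2 were lower for H3K27me3, Irf8 (49 and 217, -2.06) and Ifngr2 (28 and 103, -1.78), and 3 were higher, led by Rfxap (78 and 27, 1.46), a subunit of the RFX complex that binds the SXY module. For H3K27ac 1 of the 21 was higher, Irf8 by 3.19, and 9 were lower, among them Rfx5 (32 and 117, -1.60).

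Of 16 genes of the H2 complex that are not MHC genes, 1 was lower for H3K27me3, Pou5f1 (43 reads in EedcKO and 167 in wild type, -1.88), and 0 were higher. The same gene was the 1 called higher for H3K27ac (232 and 32, 2.93), while 3 were lower. For RNA-Pol2 10 of the 16 were higher and 0 lower, beside 22.7% and 4.18% of protein-coding promoters. For Eed 11 of the 16 were lower and 2 higher, beside 48.2% and 16.4%. The histone differences of the class I promoters were therefore not shared by most of their neighbours in the complex, while no test was made of that difference. They were not particular to class I genes, since forebrain and endothelial marker promoters, given below, showed them too.

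By the root mean square difference of log2 levels over the 12 libraries, among 19016 protein-coding genes, promoters among the 5 most like H2-K1 were Itpka (0.356), Unc5b (0.368), Otx1 (0.370) and Fhdc1 (0.373). Tap1 ranked 155 (0.542) and H2-Q6 ranked 291 (0.589). Most like H2-Q6 were Acp7 (0.371), Mroh5 (0.382), Cdk6 (0.386), Nxph3 (0.414) and Tcfl5 (0.423), with H2-K1 at rank 184. Their wild type H3K27me3 counts ran from 164 for Cdk6 to 648 for Fhdc1. These points share the same libraries and depths, and the likeness is a description.

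The labelled tissue was checked with marker promoters. Sums here are read counts, not scaled by depth, unless RPKM is named. The 10 forebrain progenitor and neuron genes summed to 1317 RNA-Pol2 reads in EedcKO and 565 in wild type, against 288 and 180 in IgG, and none was at 0. In RPKM these sums were 171 and 114 for RNA-Pol2, against 92.0 and 63.7 for IgG. Across the 6 libraries of a genotype the sum of reads ran from 215 to 4586 in EedcKO and from 180 to 3186 in wild type. The highest values lay in the libraries where the Hox genes were high. By label, H3K27me3 was lower in EedcKO at 7 of these 10 promoters and higher at 1, with a median of -1.65. The shares of protein-coding promoters were 18.0% and 8.11%. H3K27ac was higher at 7 and lower at 1, with a median of 2.45, beside 20.7% and 18.3%. The 10 microglia and macrophage genes summed to 534 RNA-Pol2 reads in EedcKO and 451 in wild type, against 398 and 350 in IgG. In RPKM these sums were 69.5 and 90.8 for RNA-Pol2, against 127 and 124 for IgG, so scaled RNA-Pol2 lay below IgG in both genotypes. The sums of reads ran from 173 to 534 in EedcKO and from 127 to 451 in wild type. The sums ran from 123 to 247 in EedcKO and 51 to 239 in wild type for 6 T and NK cell genes, and from 85 to 268 and 60 to 198 for 7 erythroid genes, with 1 erythroid gene at 0 in wild type H3K27ac. The 8 endothelial genes ran from 139 to 4557 in EedcKO and from 143 to 3446 in wild type, with Flt1 at 30 reads in EedcKO and 1458 in wild type for H3K27me3. Of the endothelial genes 4 were lower and 0 higher for H3K27me3, and 4 were higher and 1 lower for H3K27ac. Of the microglia and macrophage genes 1 was lower and 0 higher for H3K27me3, and 0 were called for H3K27ac. Of the T and NK cell genes 1 was lower and 0 higher for H3K27me3, and 3 were higher and 0 lower for H3K27ac. Erythroid genes had 1 lower and 1 higher for H3K27me3, and 0 called for H3K27ac. The part of other cell types in the class I values was not tested.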

How the data were processed

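Per the labels' protocols, Eed and input libraries were made by X-ChIP for the BGISEQ-500 and the others by CUT&Tag for the NovaSeq. Per the submitters' processing notes the build was mm10 and the tools were ChIPseeker 1.22.1, deepTools 3.4.0, MACS2 2.2.7.1 and Bowtie2 2.4.1. The sources used here give no filter on duplicates or mapping quality. The deposited promoter tables are named for RPKM but hold whole-number counts over 55385 windows, all but 2 of them 2 kb, so they were treated as counts, not as the RPKM the plan assumed. In the deposited summit lists the score looks like a −log10 p or q, which the files do not name, and it was used only to rank summits within a list. In 1 of the tables, 27 symbols had turned into dates and were taken by row and Ensembl identifier from another table.

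RPKM was computed from the counts and the total promoter count of each library, and ratios as given in the report. Exact Clopper-Pearson intervals (95%) cover the ratio of 2 counts, and a pseudocount of 0.5 RPKM and a mean of at least 1 RPKM were used, which all 10 genes passed in every comparison. Of the symbols 38896 matched RefSeq genes of GRCm38.p6. Total promoter counts of 948955 to 3842779 leave single genes with 5 to 754 reads. Ratios and the size rule were tried on simulated counts, and the intervals were not. Python 3.11.15, numpy 2.4.6, pandas 2.3.3, scipy 1.17.1, matplotlib 3.10.9 and Biopython 1.88 were used.

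The members and lists were chosen with earlier results of these data known. All 10 members are named in every library. Of each other list the genes past the size rule are counted and up to 3 named, those with the largest ratios among genes with at least 20 reads in both libraries together. The genes named as most like H2-K1 and H2-Q6 are from the 5 closest to each (1 is not reported here) among protein-coding genes with at least 100 reads over the 12 libraries. Alternatives covered scaling, pseudocount, filter, choice of window, control subtraction, removal of the H2-Q and H2-T genes, library labels and summit rules.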

Additional observations from a re-analysis of the deposited data

Results flagged for a closer look

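H2-Q7 moved in opposite directions against IgG in both genotypes. For H3K27ac over IgG its relative log2 ratio was 2.59 in EedcKO, with 141 reads against 24 in IgG, and -1.31 in wild type, with 5 reads against 15 in IgG; with a pseudocount of 2 RPKM the wild type value was -0.82. The difference between the genotypes was not tested, because each rests on 1 antibody library and 1 control library. The library labelled EedcKO H3K27ac goes against its label at the Hox promoters, H2-Q7 shares nearly all of its promoter sequence with H2-Q6, and the part of either in this value was not tested.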

How the results depend on the processing

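No paired analysis was possible because the genotypes share only replicate number 1, and leaving out a library leaves no comparison. Of 556 single-gene values under the alternatives, 453 stayed within their counting interval, 9 of them with a change of sign. The 453 include 40 values with windows summed and 40 with another choice of window. Both sets were nearly fixed beforehand, since each gene has 1 window. The 453 also include 24 values without the H2-Q and H2-T genes, a removal that leaves the ratios of the other genes unchanged. These settings thus say nothing about stability. Of the 556 values 34 changed sign, 11 of them called values, and these 11 changed with the library label. The other 23 were not called: 11 changed sign with library totals, 7 with the control subtracted, 3 with an equal median and 2 with the library label. Calls ended at 40 values and were gained at 19.

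Exchanging the EedcKO histone libraries turned the H3K27me3 difference round and left the H3K27ac median near 0. The exchanged H3K27me3 comparison is the contrast in which H2-Q6 and H2-K1 were noticed, so its values are a description only. With the library labelled EedcKO H3K27ac in place of EedcKO H3K27me3 the H3K27me3 median went to 0.64 in place of -1.77, and the genes to 1.01 (H2-K1), 0.57 (H2-D1), 0.72 (H2-Q4), 1.46 (H2-Q6), 1.62 (H2-Q7), 1.20 (H2-T23), 0.47 (Tap1) and 0.38 (Tap2). With EedcKO H3K27me3 in place of EedcKO H3K27ac the H3K27ac median was -0.0389 in place of 2.54, with H2-Q4 at -0.19, H2-T23 at -0.36 and Tap1 at -0.38, while H2-Q6 (1.54) and H2-Q7 (1.17) were still called higher.

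With library totals and no shift of the median the medians of the 10 were -0.17 for Eed (in place of -1.05), -0.92 for H3K27me3, 1.50 for H3K27ac, 0.79 for wild type Eed over input (in place of 2.11) and 1.12 for wild type H3K27me3 over IgG (in place of 2.15). After setting the 2 libraries to an equal median Eed was -1.73, and without the H2-Q and H2-T genes it was -0.37. With the control subtracted the medians were -0.18 for Eed, -4.91 for H3K27me3 (8 genes left), 7.83 for H3K27ac (8 genes) and -1.97 for RNA-Pol2 (6 genes, 3 of them called lower, in place of 0.43), since genes near their control are left close to 0 or drop out. In the upper 50% of the wild type H3K27me3 summit list by score, 3 genes had a summit in place of 5. Other pseudocounts and filters moved no median of the 10 beyond the medians of the single-gene interval limits, though single calls near the size rule ended or were gained. The choice of window could hardly move any value, since each gene has 1 window. Depth limits H2-T23, H2-Q6 and H2-Q7 most, with 5 to 31 reads in wild type H3K27ac and the library labelled EedcKO H3K27me3.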
